A study of Zea mays with 46 samples.

Results

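Silks of the maize F1 hybrid between B73 and A632 were compared with silks of its B73 parent across all genes with enough counts. The comparison covered 6 of the 27 RNA-seq libraries of the series, 3 of F1 and 3 of B73 silk, and 25250 of the 39005 genes in the count table passed the filter on low counts. B73 is an inbred line and also the line whose genome served as the reference for alignment, A632 is a second inbred, and the hybrid holds a set of chromosomes from each. All 6 libraries came from unfertilized silks at 0 days after pollination, taken when 2 to 5 cm of silk was exposed, from plants grown in a field, with 2 plants pooled per replicate and no transgene or treatment stated. The growth text of the labels names A632 x Mo17, and also B73 x Mo17, as hybrids, whereas the sample fields give B73 x A632, which was used here. Gene lists described further on were made with other libraries of the series, namely silk of A632 (for a list that also required a minimum level over B73 and F1), silk and pericarp of the P1-rr and P1-ww stocks (both labelled A619 inbred, with pericarp taken at 14 days after pollination), and leaf protoplasts of 12-day-old hybrid seedlings that carried 35S:P1 or an empty vector.

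Silks are the long styles of the maize ear flowers. They catch pollen, carry pollen tubes to the ovules, and in many lines store flavones such as maysin, which deters ear-feeding insects. P1 is an R2R3-MYB transcription factor that switches on genes of the flavonoid pathway in silk, pericarp and cob, and the P1-rr and P1-ww alleles give red and colourless pericarp and cob. An F1 hybrid carries a B73 and an A632 copy of each gene that both parents have. The reference table given for this work held 0 of the 39005 gene identifiers, so genes appear by identifier alone, with no name or role, and marker genes of silk, pollen, kernel or leaf were not looked up by name. Silk is a bulk tissue, in which fewer cells of a type and less RNA per cell cannot be told apart.

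The 6 libraries held 29962988 to 41061198 counts each, and the 15 silk libraries of 5 groups that were fitted together held 20490591 to 41061198. B73 replicate 2 stood apart from the other B73 libraries. Of 20471 genes at a group mean of 1 CPM (counts scaled to library size) or more, 769 were over 2-fold higher and 324 over 2-fold lower in it than in both other B73 libraries. The corresponding counts for B73 replicates 1 and 3 and for the F1 libraries ran from 34 to 75 above and from 52 to 115 below. Its Spearman correlation with the other B73 libraries was 0.980 to 0.981 across genes, against 0.995 between those. The median coefficient of variation over genes was 12.1% among the B73 libraries, 5.58% without replicate 2, and 8.46% among the F1 libraries. Results that move with this library are therefore given with and without it. F1 and B73 libraries correlated at 0.940 to 0.954, below every pair within either group.

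**Figure D1:**
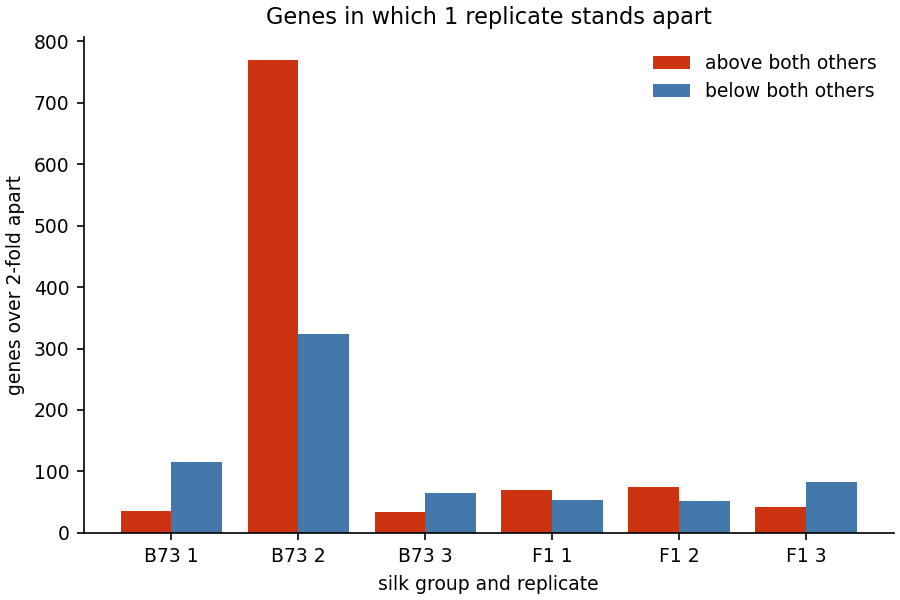
Number of genes in which a library lies over 2-fold above (red) or over 2-fold below (blue) both other replicates of its group, for the 3 B73 and 3 F1 silk libraries, among genes at a group mean of 1 CPM or more. B73 replicate 2 reaches 769 and 324 genes, and no other library exceeds 115.

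Expression differed between F1 and B73 silk in 10733 of the 25250 genes, or 42.5% (quasi-likelihood test of edgeR, p under 0.05 after Benjamini-Hochberg adjustment). Of these, 5650 genes were higher in F1 (22.4%) and 5083 were lower (20.1%). The median log2 change was 0.97 among the higher genes and -0.73 among the lower genes, and the median standard error over all genes was 0.18. A change of 2-fold or more was seen in 2749 higher genes (10.9%) and 1859 lower genes (7.36%). Which direction held more calls was not stable. With DESeq2 size factors in place of TMM factors 5179 genes were higher and 5737 lower, with a median shift of -0.05 on the log2 scale over all genes. Lower calls also outnumbered higher ones without the filter, with the DESeq2 test, and without F1 replicate 1, F1 replicate 3 or B73 replicate 1. Every F1 library lay above every B73 library in 6606 genes, of which 5396 were called higher, and below every B73 library in 7249 genes, of which 4904 were called lower.

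Changes of large size were mostly rises of genes with few reads in B73. Thresholds of 4-fold, 8-fold and 32-fold on the fitted change left 1388, 904 and 496 higher genes and 627, 257 and 38 lower genes. Fitted folds are uncertain where a group held few counts. Among the 19709 genes read at 1 CPM or more in both groups, the called genes divided evenly into 4219 higher and 4249 lower, and 65 were higher and 23 lower by 8-fold or more. Among the 5541 genes below 1 CPM in at least 1 group, 1431 were higher and 834 lower, and 839 and 234 of these differed by 8-fold or more. Below a mean of 1 CPM over the 15 silk libraries 18.9% were higher and 12.5% lower, and called genes differed by a median of 2.84 on the log2 scale in either direction. At 1 to 10 CPM, 23.0% were higher and 20.1% lower, with a median absolute log2 change of 1.21. At 10 to 100 CPM, which held 11797 genes, 22.5% were higher and 22.0% lower, with a median absolute log2 change of 0.58. At 100 CPM or more, 26.7% were higher and 24.9% lower, with a median absolute log2 change of 0.59.

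**Figure D2:**
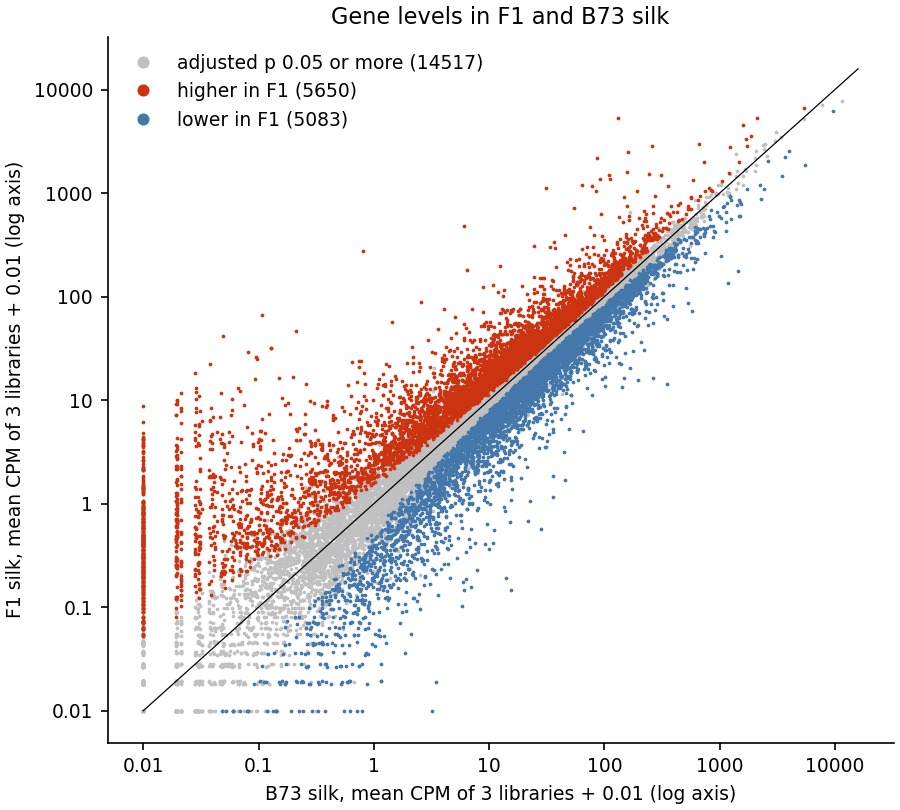
Mean level of each of the 25250 genes in F1 silk against B73 silk, in CPM plus 0.01 on log axes, each the mean of 3 libraries. Red points are the 5650 genes called higher in F1, blue points the 5083 called lower, and grey points the rest. The column of red points at the left edge holds genes with no count in B73.

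The genes with the widest contrast among those read in both groups were chosen by a fixed rule, as the largest rises and falls with groups that do not overlap. Zm00001d007403 stood at 10.3, 3.38 and 4.41 CPM in the B73 libraries and at 607, 432 and 410 CPM in the F1 libraries. Every F1 library was far above every B73 library, and the parent A632 was low as well, at 1.76, 2.51 and 0.564 CPM. The log2 change was 6.35 with a standard error (SE) of 0.50 (n = 3 per group, edgeR adjusted p = 7.26e-07). Zm00001d044122 stood at 135, 79.3 and 176 CPM in B73 and at 5719, 4816 and 5411 CPM in F1, with 516, 576 and 180.5 CPM in A632. F1 was above both parents in every library, and the log2 rise over B73 was 5.38 ± 0.43 (SE, edgeR adjusted p = 8.4e-07). Both genes were also higher in silk of P1-rr than of P1-ww, at means of 73.6 against 6.18 CPM for Zm00001d007403 and 1210 against 8.18 CPM for Zm00001d044122.

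The largest falls among genes read in both groups followed other patterns in A632. Zm00001d005146 stood at 41.3, 17.8 and 48.1 CPM in B73 and at 1.13, 0.950 and 1.36 CPM in F1, a log2 change of -4.94 ± 0.36 (SE, edgeR adjusted p = 3.65e-07). Its A632 libraries were lower still, at 0.417, 0.513 and 0.250 CPM, so F1 lay between the parents and close to A632. Zm00001d019895 stood at 47.2, 24.9 and 63.5 CPM in B73 and at 1.54, 1.36 and 2.15 CPM in F1, with a log2 change of -4.72 ± 0.35 (SE, edgeR adjusted p = 4.55e-07). Here A632 held 13.4, 10.7 and 15.9 CPM, so every F1 library was below every library of both parents.

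**Figure D3:**
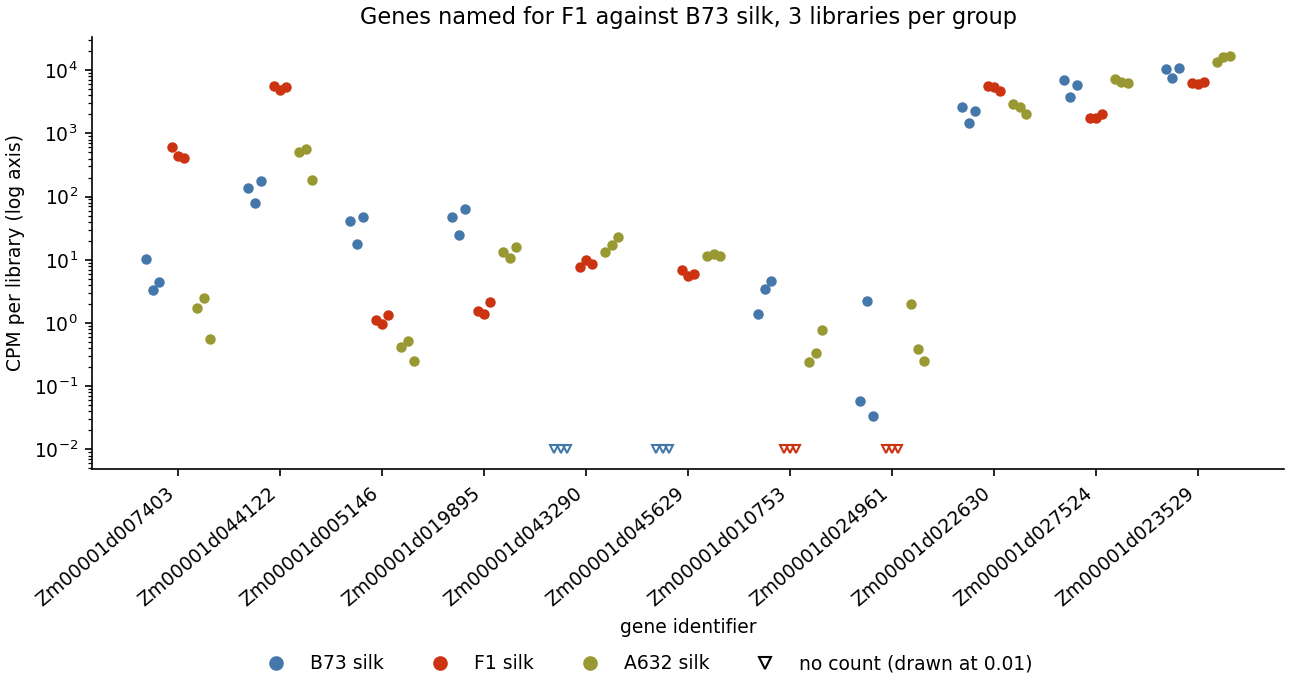
Level in each silk library of B73 (blue), F1 (red) and A632 (olive) for the 11 genes named by the rule, in CPM on a log axis. Open triangles mark libraries without a count. Zm00001d007403 and Zm00001d044122 are highest in F1, whereas Zm00001d043290 and Zm00001d045629 have no count in B73 and are highest in A632.

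Genes were also ranked by the CPM gained or lost, which favours genes read at high levels in B73 or F1. Summed over all genes with a higher mean in F1, the gain was 170104 CPM, and the 10 called genes that gained most made up 14.9% of that sum. Zm00001d044122, described above, gained most. Zm00001d022630 followed, at 2617, 1452 and 2263 CPM in B73 and 5681, 5466 and 4724 CPM in F1. It was higher in every F1 library, by a log2 change of 1.35 ± 0.28 (SE, edgeR adjusted p = 0.00165), while A632 held 2931, 2619 and 2047 CPM. Zm00001d027524 lost most, from 6987, 3828 and 5780 CPM in B73 to 1779, 1780 and 1993 CPM in F1, a log2 change of -1.55 ± 0.21 (SE, edgeR adjusted p = 7.47e-05). Its A632 level was 6673 ± 495 CPM (SD, n = 3), so the hybrid was below both parents. Zm00001d023529 came next, with 10600, 7479 and 10630 CPM in B73 and 6164, 6057 and 6585 CPM in F1. Its log2 change of -0.58 ± 0.19 (SE, edgeR adjusted p = 0.0228) was the smallest of the genes named, and the call was lost without F1 replicate 2, B73 replicate 1 or B73 replicate 3.

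A group of genes had no reads in B73 silk and was clearly read in the hybrid. In 55 genes the B73 libraries held no count while F1 averaged 1 CPM or more, levels by which they were chosen. Set against a floor of 3 counts over the B73 group, which is 0.0299 CPM, F1 was at least 34.2-fold to at least 291-fold higher in these genes. A632 read 51 of them at 1 CPM or more, and the remainder had some count there. F1 stood at a median of 0.524 of the A632 level (quartiles 0.476 and 0.750). Zm00001d043290 had no count in B73, 7.62, 9.77 and 8.68 CPM in F1, and 13.1, 16.9 and 23.4 CPM in A632. F1 was at least 291-fold above the B73 floor (edgeR adjusted p = 6.63e-08). Zm00001d045629 had no count in B73, 6.87, 5.60 and 6.07 CPM in F1 and 11.6, 12.3 and 11.5 CPM in A632, at least 207-fold above the floor (edgeR adjusted p = 1.75e-08). In both genes every F1 library lay below every A632 library.

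The 496 genes with a fitted rise of 32-fold or more included genes without a count in B73 and were mostly read at low levels. Their folds were not set against the floor, and a fitted fold can exceed the fold over the floor. Zm00001d027691, named after its values were seen, had no count in B73 and 0.271 CPM in F1, with a fitted log2 change of 6.07. In B73, 491 of the 496 were under 1 CPM. The median F1 level of the 496 was 0.894 CPM (quartiles 0.423 and 3.08), and only 68 reached 5 CPM in F1. A632 held at least 0.25 of the F1 level in 473 of the 496, and F1 stood at a median of 0.53 of the A632 level. In 18 genes, Zm00001d007403 among them, A632 held less than 0.125 of the F1 level, so these were higher in the hybrid than in either parent. The 38 genes lower by 32-fold or more were split, with 12 at 0.25 or more of the B73 level in A632 and 22 under 0.125. Without B73 replicate 2, 484 of the 496 and 29 of the 38 were still called in the same direction.

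Loss of all reads in the hybrid was rare. Zm00001d010753 was the single gene with no count in F1 and 1 CPM or more in B73, where it held 1.38, 3.49 and 4.64 CPM, with 0.238, 0.332 and 0.783 CPM in A632. F1 was at least 121-fold lower than B73 against a floor of 3 counts over the F1 group, which is 0.0263 CPM (edgeR adjusted p = 2.52e-05). Zm00001d024961 had no count in F1 either, but its B73 level rested on replicate 2, with 0.0587, 2.22 and 0.0334 CPM. Its fall, at least 29.4-fold (edgeR adjusted p = 0.0488), was not called without that library (edgeR adjusted p = 0.262), nor when any single F1 library was left out.

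Genes silent in A632 silk were mostly at a lower level in the hybrid than in B73. A total of 81 genes had no count in any A632 library and a mean of 1 CPM or more over the B73 and F1 groups. All 81 had a count in F1, and their summed level was 381, 456 and 381 CPM in B73 and 200.4, 209.7 and 199 CPM in F1. The F1 libraries were all below the B73 libraries, and the median F1 level per gene was 0.438 of B73 (quartiles 0.317 and 0.619). The mean was higher in F1 than in B73, up to 1.91 of its level, in 4 of them, none of which was called (Zm00001d004209, Zm00001d012894, Zm00001d035570 and Zm00001d038387, named after their values were seen). Of the 80 that passed the filter, 49 were called lower (61.3%) and 0 higher, against 20.1% and 22.4% of all genes. At an unadjusted edgeR p under 0.05, 1 of them was higher and 56 lower, and the share of all genes at that threshold was not computed. DESeq2 called 0 of them higher and 53 lower, beside 5435 higher and 6109 lower among all 25250 genes. In the main edgeR fit the 80 genes had a median log2 change of -1.12 (quartiles -1.57 and -0.63), where that of all genes was 0. At a minimum of 5 CPM, a level chosen after seeing the data, 18 genes remained, 14 of them lower, with a median of -1.05. Reads were aligned to the B73 genome alone, so a gene missing from A632, one too different there to be aligned and one that A632 silk does not express cannot be told apart.

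Genes tied to P1 in other libraries of the series were next described in this contrast, beginning with 35 genes that 35S:P1 raised in leaf protoplasts. Of the 29 that passed the filter, 21 were higher in F1 than in B73 silk (72.4%) and 2 were lower (6.90%). Their median log2 change was 2.75 (quartiles 0.47 and 3.65), and 14 were higher by 8-fold or more. Summed over the 35 genes, B73 libraries held 1650, 955 and 1525 CPM and F1 libraries 14506, 12856 and 13793 CPM. The A632 libraries held 1988, 1494 and 943.5 CPM, so the hybrid was far above both parents and the parents overlapped. Summed levels were 3266, 4563 and 3469 CPM in P1-rr silk and 422, 445 and 438 CPM in P1-ww silk, so F1 was also above the stock with the active allele. Every F1 library lay above every B73 library in 21 of the 29 genes, where 26.2% of all genes showed this. In 18 of the 29 every F1 library was above every A632 library as well, for which the share of all genes was not computed. F1 against A632, which shares the F1 libraries with the main comparison, gave 20 higher (69.0%) and 2 lower (6.90%) members with a median log2 change of 2.53, beside 23.8% higher and 23.4% lower over all genes. The lower members there, named after their values were seen, were Zm00001d013089 and Zm00001d048151.

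Members of the protoplast list were not uniform. Zm00001d007403, already given, had the largest rise, and Zm00001d052673 the next, from 112, 33.1 and 114.7 CPM in B73 to 2380, 2109 and 2087 CPM in F1 (log2 change 4.68, edgeR adjusted p = 2.95e-06). A632 held 389, 398 and 188 CPM of Zm00001d052673, above every B73 library and below every F1 library. The 2 lower members were Zm00001d034836 and Zm00001d052010, named with Zm00001d052673 after their values were seen. Zm00001d034836 went from 59.3, 43.2 and 57.9 CPM in B73 to 18.5, 20.0 and 24.0 CPM in F1 (log2 change -1.33, edgeR adjusted p = 1.63e-05). Zm00001d052010 went from 11.1, 9.72 and 9.71 CPM to 6.90, 6.26 and 6.21 CPM (log2 change -0.62, edgeR adjusted p = 0.0401), a call lost when any single F1 library was left out, and without B73 replicate 1 or 3. Of the 6 tested members without a call, Zm00001d052544 had no count in any B73, F1 or A632 library, so its value is no measurement, and the others had log2 changes of -0.53 to 0.47. Over the 28 tested members with a count in B73 or F1 the median log2 change was 3.07. The 6 untested members stayed at or below 0.245 CPM in every B73 and F1 library. B73 replicate 2 held the lowest of the B73 levels in 19 of the 29 genes, and without it 21 members were higher, 2 lower and the median was 2.55.

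The list of 35 depends on the test that made it. With the protoplast replicate number as a block, 35S:P1 raised 1305 genes, of which 1110 were tested here. Of these, 321 were higher (28.9%) and 202 lower (18.2%) in F1 than in B73, with a median log2 change of 0.12. The 272 genes lowered by 35S:P1 under the block had 229 tested members, 36 higher (15.7%) and 69 lower (30.1%), with a median of -0.30. Shares in both longer lists were thus nearer to those of all genes than in the short list. The summed level of the 1305 genes still differed, at means of 53050 CPM in B73, 57940 CPM in A632 and 86953 CPM in F1. Every F1 library was above every other silk library in that sum. The median level over the 1305 genes differed less, at 7.07, 6.59 and 6.78 CPM in the B73 libraries and 7.70, 7.40 and 7.62 CPM in the F1 libraries. For the 272 lowered genes the means of the summed level were 8723 CPM in B73, 6693 CPM in A632 and 6670 CPM in F1.

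The second pair of lists came from silk itself, as genes that differed between P1-rr and P1-ww, none of whose libraries belong to B73, A632 or F1. Of the 1481 genes higher in P1-rr, 692 were higher in F1 than in B73 (46.7%) and 134 were lower (9.05%), with a median log2 change of 0.37 (quartiles -0.04 and 0.92). Their summed level was 71411, 71074 and 71730 CPM in B73 and 113566, 109812 and 109654 CPM in F1, a mean gain of 39605 CPM. A632 held 72067, 68577 and 64266 CPM, P1-rr 80028, 90707 and 76049 CPM, and P1-ww 43770, 43087 and 44812 CPM. F1 was thus above every other silk library, and B73 and A632 stood between the P1-rr and P1-ww stocks.

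Of the 1659 genes that were lower in P1-rr silk, 746 were lower in F1 than in B73 (45.0%) and 199 were higher (12.0%), with a median log2 change of -0.34 (quartiles -0.82 and 0.05). Their summed level was 112181, 102444 and 112593 CPM in B73 and 76586, 78632 and 82332 CPM in F1. The F1 libraries were all below the B73 libraries and within the range of P1-rr, which held 80751, 74836 and 87106 CPM. A632 held 111337, 121083 and 124573 CPM, and P1-ww 127240, 131268 and 128353 CPM. Without B73 replicate 2 the first list gave 674 higher (45.5%) and 120 lower (8.10%) genes and the second 172 higher (10.4%) and 772 lower (46.5%).

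The lists can also be read as an overlap, since the comparisons share no library. A total of 1771 genes were called in both. They were 16.5% of the calls in F1 against B73, where 12.4% of all genes were called in P1-rr against P1-ww. They were 56.4% of the 3140 calls in P1-rr against P1-ww, where 42.5% of all genes were called in F1 against B73. The direction was the same in 1438 of the 1771 (81.2%). Across all 25250 genes the log2 changes of both comparisons had a Pearson correlation of 0.15 and a Spearman correlation of 0.26, given as a description over genes, which are not independent replicates and were normalized and fitted together. F1 against A632, with its shared F1 libraries and the shares of all genes given above, had 748 higher (50.5%) and 166 lower (11.2%) genes in the first list, with a median of 0.46, and 200 higher (12.1%) and 844 lower (50.9%) in the second list, with a median of -0.42. A632 against B73, which shares the B73 libraries, called 28.2% of all genes above and 24.8% below B73. It gave 412 genes above (27.8%) and 452 below (30.5%) in the first list, and 603 above (36.4%) and 434 below (26.2%) in the second.

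**Figure D4:**
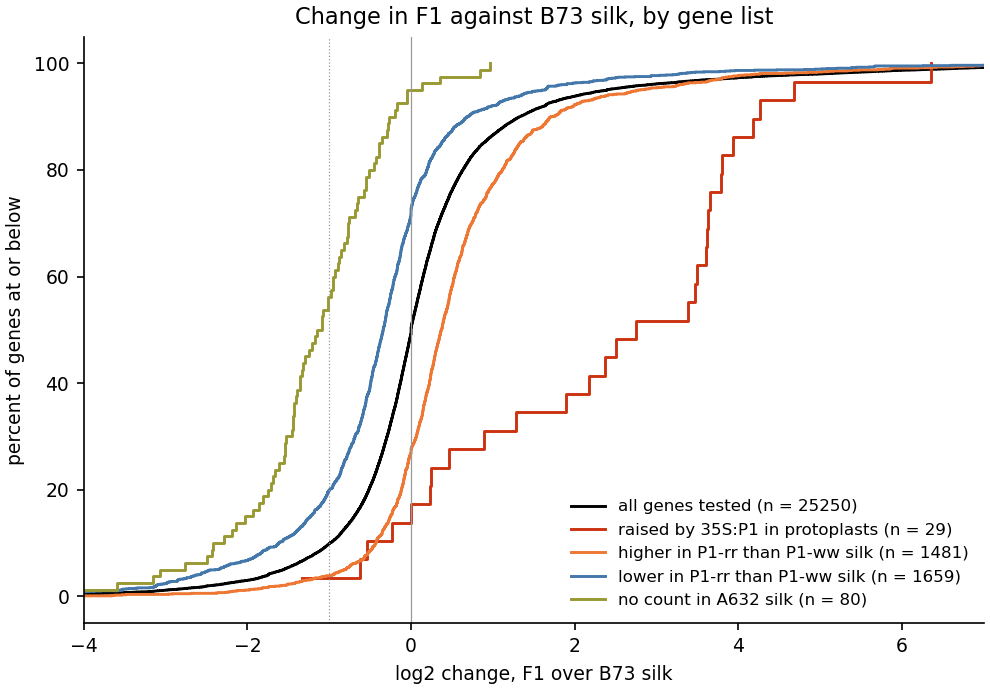
Cumulative share of genes against the log2 change of F1 over B73 silk, for all 25250 genes tested and for 4 lists, of which the one without a count in A632 also required a minimum level over B73 and F1. The curve of genes without a count in A632 crosses its middle at -1.12, near the dotted line of a 2-fold fall, and that of the 29 tested protoplast genes at 2.75.

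Lists made from tissue contrasts in P1-ww and protoplast libraries were used to see how tissue-linked genes stood, since marker genes could not be looked up. Of 2761 tested genes that were 4-fold or more higher in pericarp than in silk of P1-ww, 388 were higher in F1 (14.1%) and 750 lower (27.2%), with a median log2 change of -0.26. Their summed level was 46889, 63267 and 47395 CPM in B73 and 46377, 45483 and 43767 CPM in F1, so B73 replicate 2 was the high library and the other B73 libraries lay close to F1. Without it, 469 were higher (16.7%) and 578 lower (20.5%), and the median was -0.03. The shares of all genes were 22.4% higher and 20.1% lower with replicate 2, and 21.1% and 18.7% without it. Of 3413 genes 4-fold or more higher in P1-ww silk than in pericarp, 1190 were higher in F1 (34.9%) and 592 lower (17.4%). The summed level of these silk genes was 224514, 183333 and 223649 CPM in B73, again with replicate 2 apart, and 226277, 224719 and 233962 CPM in F1. Without replicate 2 the counts were 1076 higher (31.5%) and 674 lower (19.8%), and the median went from 0.21 to 0.13.

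Genes linked to leaf protoplasts were described in the same way, beside the same shares of all genes. Of 3162 tested genes 8-fold or more higher in protoplasts than in P1-ww silk, 497 were higher in F1 (15.7%) and 879 lower (27.8%), with a median of -0.30. B73 held 37235, 49489 and 37094 CPM of this list and F1 33791, 33366 and 31349 CPM, so F1 was below every B73 library and replicate 2 was again the highest. Without that library 540 were higher (16.7%) and 696 lower (21.5%), with a median of -0.11. Of 3033 genes 8-fold or more higher in P1-ww silk than in protoplasts, 806 were higher in F1 (26.6%) and 476 lower (15.7%), and without it 731 (24.1%) and 526 (17.3%).

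**Figure D5:**
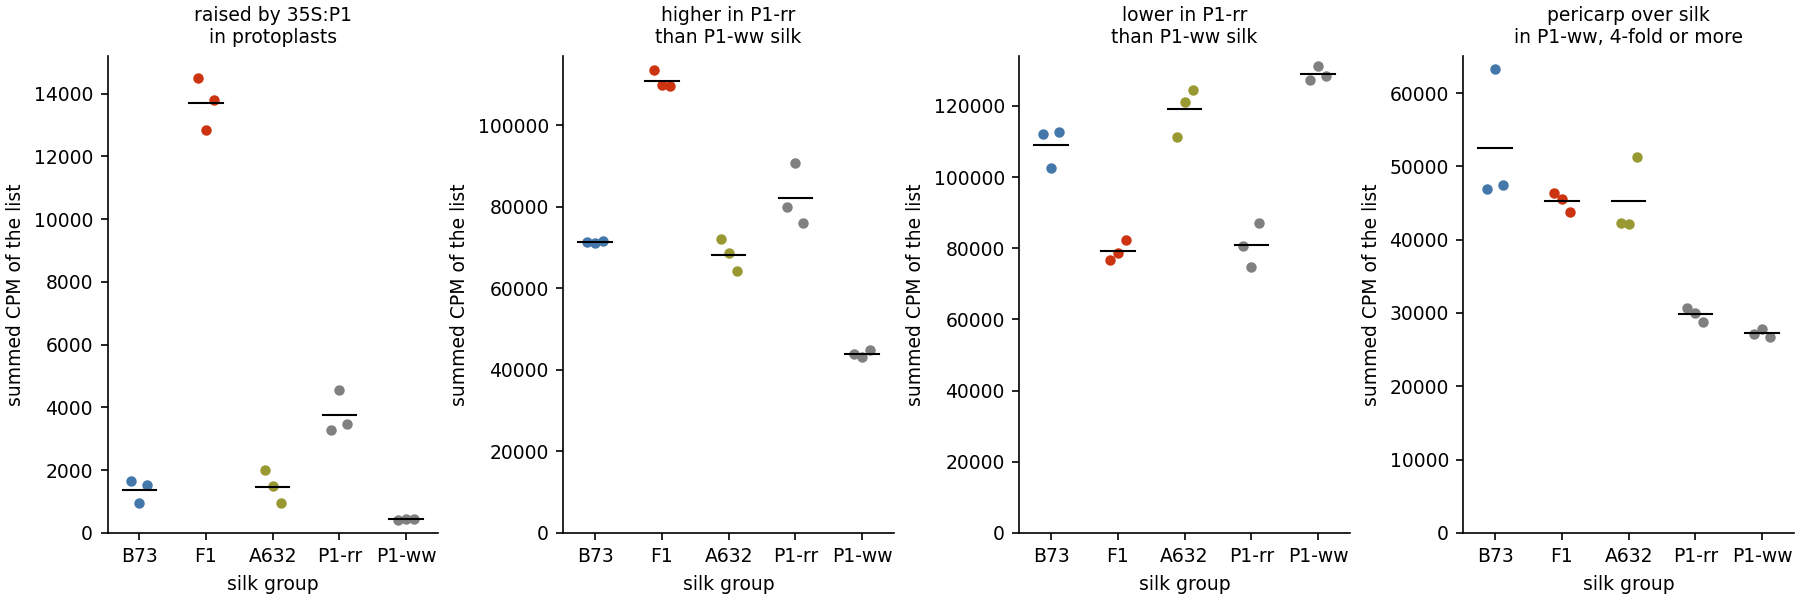
Summed level in CPM of 4 gene lists in each of the 15 silk libraries, with the mean of each group as a line. In the first 2 panels the 3 F1 libraries are the highest, in the third they lie with P1-rr below B73, and in the fourth B73 replicate 2 at 63267 CPM is apart from the other B73 libraries.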

How the data were processed

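RNA-seq of silk, pericarp and protoplasts used total RNA extracted with Trizol, a TruSeq RNA v2 kit and single reads of 50 bases, per the labels' protocols. bcl2fastq 2.20.0, FastQC, Trimmomatic, Bowtie2 2.3.4.1 and HISAT2 2.0.4 with the build B73 RefGen_v4 are listed in the submitters' processing notes. Sources used here do not give the counter, annotation or use of strand, so gene copies that share reads and overlapping genes are uncertain. The authors deposited raw read counts per gene and library, with no normalization.

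The test was the two-sided quasi-likelihood F test of edgeR 4.0.16 (R 4.3.3) on 15 silk libraries, with the filterByExpr filter, TMM normalization, a mean for each group and Benjamini-Hochberg adjustment at 0.05. The SE of a log2 change was derived from its F value. CPM are counts scaled to the library total. Floors cover counting error only. In simulated counts for F1 against B73 silk (24567 genes), the test recovered 60% of 50 genes changed 2-fold and 98% at 4-fold. Recovery was 98% at 8-fold and 100% at 32-fold, with 6 false among 184 calls. Only these genes were changed, all drawn from genes with enough counts, and the silk groups otherwise shared the same means. The data held far more calls and a B73 replicate that stood apart, so recovery there can differ. Members and lists were chosen with earlier results of these data known.

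Named genes were, by rule, the first 2 rises and first 2 falls among called genes with groups that do not overlap and 1 CPM or more in the lower group, the same under 1 CPM, and, among called genes, the 2 largest gains and losses in CPM. Lists of pathway and marker genes by symbol were not matched, because no table used here pairs the identifiers with names. Protoplasts, and P1-ww pericarp and protoplasts against P1-ww silk, were fitted separately for the lists. Alternatives, among them DESeq2 1.42.0, are given at the end. Peak lists were not used here.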

Additional observations from a re-analysis of the deposited data

How the results depend on the processing

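The count of 10733 called genes was within 1.5 times of its value under all alternatives except a pair. With all 27 libraries in the fit it was 3880 (2293 higher, 1587 lower), and with a test against a 2-fold change it was 2072 (1470 higher, 602 lower), a stricter test by construction; the cause of the former was not tested. More genes were lower than higher with DESeq2 size factors, without a filter (5144 higher, 5402 lower), with the DESeq2 Wald test (5435 higher, 6109 lower), and without F1 replicate 1 (4434 and 4441), F1 replicate 3 (4530 and 4674) or B73 replicate 1 (4595 and 4881). Leaving out each replicate gave 8816 to 10207 called genes, 4434 to 5412 higher and 3965 to 4881 lower. The lowest total came without F1 replicate 2. The median log2 change of genes silent in A632 then ran from -1.23 to -1.09, that of genes lower in P1-rr from -0.40 to -0.32, that of genes higher in P1-rr from 0.32 to 0.41, and that of the 35 protoplast genes from 2.51 to 2.71. With P1-rr lists of 2-fold or more, chosen after seeing the data, the medians were 0.52 and -0.53, and with the protoplast list from the blocked fit 0.12. Deviations correlated at -0.23, 0.09 and 0.16 between same-numbered B73 and F1 libraries, and at -0.28 to 0.26 between differently numbered ones. With so few libraries per group, these values cannot decide whether replicate numbers pair the libraries. With the replicate number as a block 10525 genes were called. The medians of the genes silent in A632, the P1-rr lists and the 35 protoplast genes kept their sign under the alternatives run, as did every named gene. The tissue lists were not run through all of these alternatives. Among 11 named genes under 14 alternatives, the call was lost in 16 of 153 cases, all in Zm00001d024961, Zm00001d023529, Zm00001d022630 and Zm00001d027524. Simulated 2-fold changes were recovered in only 60% of genes, so small changes may be missed. The simulation held far fewer changed genes than were called in the data, so its recovery is no measure of that in the data.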

Other observations

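The 769 genes that were over 2-fold higher in B73 replicate 2 than in both other B73 libraries summed to 6456, 20550 and 7055 CPM in the B73 libraries and to 9816, 8915 and 7543 CPM in F1. They were chosen by a library of this comparison, so a surplus of lower calls in F1 follows from the choice. Of the 765 tested in the full comparison, 50 were called higher and 205 lower in F1, where 22.4% and 20.1% of all genes were. Without B73 replicate 2 the counts were 180 higher and 112 lower, where the shares of all genes were 21.1% and 18.7%. The 324 genes over 2-fold lower in that library summed to 13186, 4676 and 12249 CPM in B73 and to 18354, 17843 and 19661 CPM in F1. All 324 were tested in the full comparison, where 51 were called higher and 86 lower in F1. Without B73 replicate 2 the counts were 36 higher and 150 lower, beside the same shares of all genes. These genes too were chosen by a library of this comparison, but being low in a B73 library favours higher calls in F1. What sets the library apart was not tested. Over all genes, 9021 calls were shared with and without it.

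A632 replicates 1 and 3 were also spread, with 361 and 705 genes over 2-fold above both other A632 libraries, so levels given relative to A632 carry that spread.

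Genes called by 2-fold or more occurred throughout the numbering of the identifiers. In 104 blocks of 500 consecutive numbers with at least 100 genes tested, their share ran from 9.26% to 25.8%, with a median of 18.1%.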
